A study of Bos taurus with 16 samples.

Results

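Gene expression in the endometrium, the lining of the uterus, was compared between about 100 and about 30 days after parturition in the same 4 cows. The comparison used 8 of the 16 arrays of the series: the 4 arrays labelled d100 and the 4 labelled d30, each cow set against itself by its number. The other 8 arrays hold the same cows at days 10 and 50. All cows were fertile animals, per the labels, and no treatment is named. The true sampling days were 29 in cow 1 and 30 in cows 2, 3 and 4 for the earlier biopsy, and 99 in cow 2 and 100 in cows 1, 3 and 4 for the later one. Tissue was taken from the uterine horns with biopsy forceps, so each array holds whatever mixture of surface, glands, stroma and muscle the forceps caught. The sources used here do not give the stage of the oestrous cycle at each biopsy.

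After calving the bovine uterus sheds its caruncles, clears bacteria and debris, regrows its epithelium and shrinks its muscle wall, a process called involution. Once ovarian cycles return, oestradiol and progesterone alternate in driving the endometrium: progesterone lowers its own receptor in the epithelium, later oxytocin and prostaglandin F2 alpha control the fate of the corpus luteum, and gland products feed the early conceptus. The comparison therefore sets a uterus late in involution against one at an age when cows are commonly bred again.

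Total RNA was labelled with the dye Cy3 and hybridised to 1-colour Agilent arrays of 60-base probes. A level below is the log2 processed signal of a probe relative to the 75th percentile of its array, and a difference of 1 is a doubling or halving. Of 43653 probes, 33182 exceeded background clearly on 4 or more of the 16 arrays and were tested, and they cover 12923 genes with a symbol, each represented by its brightest probe. The median processed signal ran from 79.2 to 120 at day 30 and from 51.1 to 104 at day 100, and between 63.4% and 72.2% of probes were well above background on these 8 arrays. The precision of all values is limited by having 4 arrays per day. The day 100 arrays differed most among themselves: the median SD over cows was 0.685 on the log2 scale at day 100 against 0.486 at day 30, and the correlation between cows across probes ran from 0.833 to 0.958 at day 100 and from 0.927 to 0.964 at day 30. Each cow had its own slide and each day its own position on every slide, so position and day cannot be told apart.

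The biopsies differed in the levels of tissue marker genes, and the day 100 arrays of cows 1 and 2 stood apart. EPCAM, an adhesion protein of epithelial cells, had levels of 3.35, 4.08, 4.46 and 0.93 in cows 1 to 4 at day 30 and of 6.14, -3.2, 5.93 and 5.16 at day 100. The array of cow 2 at day 100 was thus far below all others in this marker. MYH11, the heavy chain of smooth muscle myosin, had levels of 5.89, 5.80, 4.55 and 5.69 at day 30 and of 0.83, 6.16, 3.15 and 5.08 at day 100, with cow 1 lowest at day 100. The mean level of the 19 measured epithelial markers, relative to the mean of all 16 arrays, was -0.52, 0.15, 0.48 and -2.04 at day 30 and 2.57, -3.41, 0.59 and 0.48 at day 100. The 12 measured smooth muscle markers gave 1.98, 1.89, -0.31 and 1.16 at day 30 and -3.72, 2.21, -1.76 and 0.23 at day 100. In whole biopsies, fewer cells of a type and less RNA per cell cannot be told apart. All 8 arrays were well above background for both EPCAM and MYH11, so each biopsy held RNA of both tissues.

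No gene passed the test between day 100 and day 30. Limma, with terms for day and cow, called 0 of 33182 probes at an adjusted p under 0.05, which is 0.0% in either direction, and the smallest adjusted p was 0.26. At an unadjusted p under 0.05 there were 1841 probes higher at day 100 (5.55%) and 2391 lower (7.21%), together 4232 (12.8%). The call depended on a single array. Without the day 100 array of cow 2, 112 probes were called (0.338%), of which 76 were higher at day 100 (0.229%) and 36 lower (0.108%). They carried the symbols of 45 higher and 26 lower genes. In cow 2 itself, 43 of the 76 higher probes and 13 of the 36 lower probes differed in the opposite direction. Without the day 100 array of cow 1, 1 probe was called (0.00301%), an uncharacterised locus with a log2 difference of 3.2 and an adjusted p of 0.0244. All differences below are therefore given with the value in each cow, and none is a called change.

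The cows did not move together across all genes. Within-cow differences, day 100 minus day 30, correlated across probes with r of 0.35 between cows 1 and 4 and 0.29 between cows 1 and 3, but with -0.19 between cows 1 and 2 and -0.29 between cows 2 and 4. Probes are not independent, and these are descriptions of 4 pairs. The genes were ranked by consistency: a gene qualifies where all 4 within-cow differences have 1 sign, and its rank is set by the smallest of the 4. Among all 12923 genes, 961 were higher at day 100 in 4 of 4 cows (7.44%) and 947 were lower in 4 of 4 (7.33%). Signs can agree in 4 cows without a shared change, and how many of these genes did so was not tested. Over all probes the shares were 6.49% higher and 8.37% lower. Levels at the 2 days did not overlap for 214 higher genes (1.66%) and 168 lower genes (1.3%). The ranking used genes well above background on all 4 arrays of day 30 or of day 100, which left 838 higher and 848 lower genes. Most of its first 15 in each direction follow, with the fifteenth at 1.32 (KCNJ11) and the sixteenth at 1.3 (PENK) among the higher genes, and at -1.49 (ADAMTS6) and -1.48 (CENPK) among the lower. Since the ranking used these same differences, their sizes are a description.

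**Figure D1:**
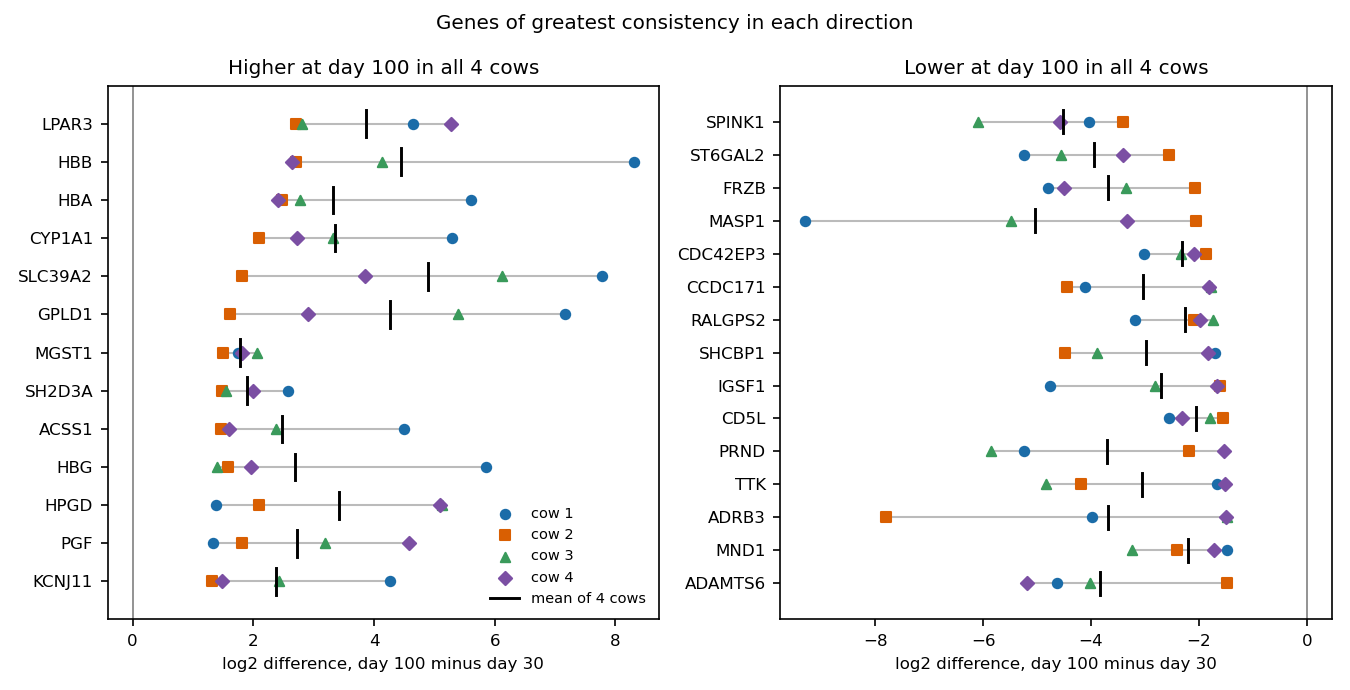
Within-cow log2 differences, day 100 minus day 30, for 13 of the 15 most consistent higher genes (left) and the 15 most consistent lower genes (right); each point is 1 cow and the black tick is the mean of 4 cows. All points of a gene lie on 1 side of 0, and cow 1 gives the largest difference for 9 of the 13 higher genes and 7 of the 15 lower genes.

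The first rank among the higher genes was LPAR3, a receptor for lysophosphatidic acid that is known for its part in uterine receptivity. Its level was -2.18, -5.41, -2.48 and -4.83 in cows 1 to 4 at day 30 and 2.46, -2.71, 0.32 and 0.44 at day 100. The day 100 value of cow 2 lay below 2 of the day 30 values, so the groups overlapped although every cow was higher. The mean difference was 3.86 ± 0.83 (SE), with an adjusted p of 0.26, and all 3 tested probes of the gene were higher at day 100, by 1.61 to 3.86. LPAR3 already stood at a mean of 0.02 at day 50, against -3.73 at day 30 and 0.13 at day 100.

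The enzymes MGST1, CYP1A1 and ACSS1 were at ranks 8, 4 and 10. MGST1 is a microsomal glutathione transferase that protects against oxidised lipids. Its level was 1.22, 0.96, 1.48 and 0.57 at day 30 and 2.95, 2.46, 3.55 and 2.39 at day 100, with differences from 1.5 to 2.06 and no overlap. The fitted difference was 1.78 ± 0.55, adjusted p 0.283. CYP1A1, a cytochrome P450 induced through the aryl hydrocarbon receptor, was at -3.79, -7.24, -4.72 and -3.80 at day 30 and at 1.51, -5.14, -1.4 and -1.08 at day 100. It differed by 3.36 ± 0.87 with overlapping groups, and only 3 of the 4 day 30 arrays were well above background. ACSS1, the mitochondrial acetyl-CoA synthetase, was at 1.35, 0.51, 0.96 and 0.96 at day 30 and at 5.85, 1.97, 3.34 and 2.55 at day 100. Every day 100 value exceeded every day 30 value, and the difference was 2.48 ± 0.58, adjusted p 0.26.

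SLC39A2, GPLD1, SH2D3A and KCNJ11 have separate roles. SLC39A2, a zinc importer, had levels of -2.09, -3.12, -2.71 and -1.5 at day 30 and of 5.69, -1.3, 3.41 and 2.35 at day 100. It had the largest mean difference of the 15, 4.89 ± 1.26, with no overlap, and its second probe gave 5.56. GPLD1, which cleaves glycosylphosphatidylinositol anchors, lay between -4.83 and -4.33 in all cows at day 30 and at 2.34, -2.70, 0.66 and -1.58 at day 100. The day 30 levels of GPLD1 spread by an SD of 0.23 and the day 100 levels by 2.26, and the difference was 4.27 ± 1.09, or 2.83 with epithelial and smooth muscle marker levels as covariates. SH2D3A, an adaptor protein with an SH2 domain, was at -0.25, -1.20, -0.40 and -1.34 at day 30 and at 2.34, 0.28, 1.15 and 0.64 at day 100. The SH2D3A groups did not overlap, and its difference of 1.90 ± 0.35 had the smallest standard error of the 15. KCNJ11, a subunit of ATP-sensitive potassium channels, was higher by 1.32 to 4.26. Its days overlapped, and it was well above background on 3 of 4 day 30 arrays.

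HPGD and PGF, also members of gene lists described further on, were among the 15. HPGD, the 15-hydroxyprostaglandin dehydrogenase that inactivates prostaglandins, was at -0.18, -3.27, -2.52 and -2.04 at day 30 and at 1.20, -1.17, 2.61 and 3.05 at day 100. It was higher by 5.12 in cow 3 and 5.09 in cow 4 but by 1.38 in cow 1, and the mean was 3.42 ± 0.69, adjusted p 0.26. PGF, placental growth factor, a ligand of the VEGF family, was at 0.20, -0.96, 0.13 and -1.84 at day 30 and at 1.53, 0.85, 3.31 and 2.74 at day 100. Its groups did not overlap, the difference was 2.72 ± 0.54, and its 3 probes gave 2.65 to 2.72.

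Haemoglobin genes took 3 of the 15 places, and their probes are shown because the 3 probes of HBG did not give 1 answer. HBB encodes the adult beta chain, HBA the alpha chain and HBG a gamma chain of haemoglobin. Each line gives the last 30 bases of the 60-base probe as the deposited files hold it, 5′ to 3′, in lower case. Capitals mark AATAAA, the usual polyadenylation signal, searched for on the printed strand only. It occurs in the last 30 bases of 3381 of 43653 probes (7.75%).
HBB probe: ttttggggcaaggtgaaagtggatgaagtt
HBG probe 1: ttcgctgagtgagctgcactgggataagct
HBG probe 2: tatggaaaaattatgaagcgttttgtgcat
HBG probe 3: ttgtgcatcttgcctctgcctAATAAAgac
HBA probe: cacctcctgatctttgAATAAAgtctgagt

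On build HGSC Btau_3.1 the full probes lie on the plus strand at chr15:47825720-47825779 (HBB), chr15:47886299-47886358, chr15:47887119-47887178 and chr15:47887142-47887200 (HBG probes 1 to 3) and chr25:673407-673466 (HBA). Exon positions of the probes were not used here. HBB had levels of -7.25, -4.76, -7.32 and -6.03 at day 30, where 2 of 4 arrays were well above background, and of 1.06, -2.06, -3.19 and -3.39 at day 100. HBA was at -2.84, -2.63, -4.54 and -3.29 at day 30 and at 2.78, -0.17, -1.76 and -0.88 at day 100. Neither gene overlapped between days, and cow 1 was highest for both at day 100.

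The difference was 4.45 ± 1.08 for HBB and 3.32 ± 1.14 for HBA, with adjusted p of 0.26 and 0.309. Without the day 100 array of cow 1 the HBA difference was 2.11. HBG probe 1, the brightest of the gene, was higher by 5.85, 1.58, 1.4 and 1.96 in cows 1 to 4, on average 2.69 ± 1.0, or 1.65 with the tissue covariates. HBG probes 2 and 3, which overlap each other on the genome, differed by 0.02 ± 0.82 and -0.05 ± 0.73. The HBG result therefore rests on 1 probe of 3, and whether that probe also binds transcripts of the other beta-type genes was not tested. The other measured erythroid markers differed less. AHSP, the chaperone of free alpha chains, differed by 0.23, and SLC4A1, the anion exchanger of red cells, by -0.69 with 1 of 4 arrays well above background on each day. The sources used here do not give the blood content of the biopsies, and its part in these differences was not tested.

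**Figure D2:**
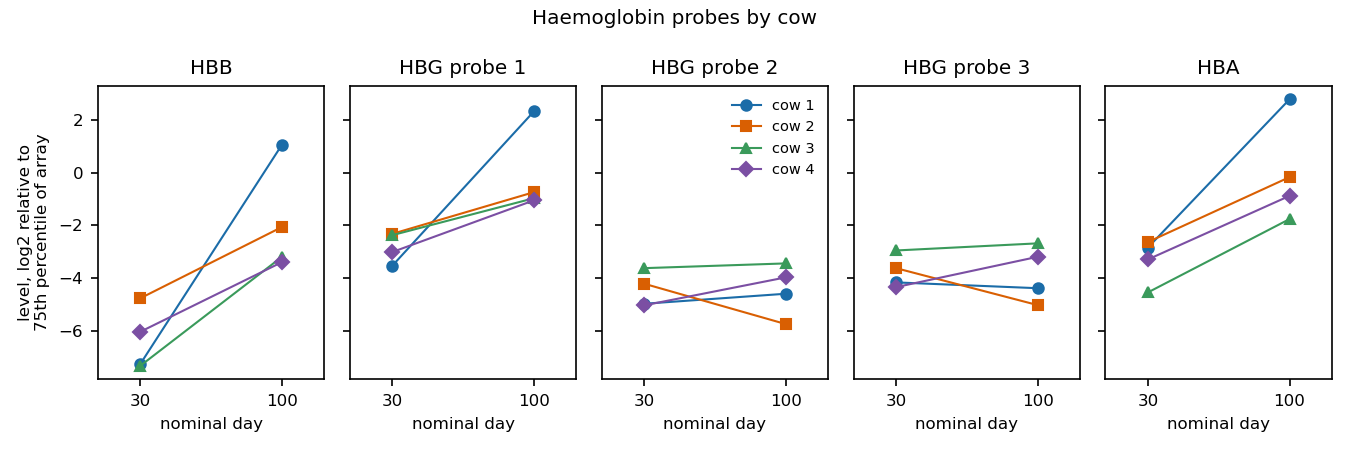
Levels (log2 relative to the 75th percentile of the array) of 5 haemoglobin probes at days 30 and 100, 1 line per cow. HBB, HBG probe 1 and HBA are higher at day 100 in 4 of 4 cows, while HBG probes 2 and 3 show mean differences of 0.02 and -0.05.

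Among the lower genes SPINK1, a secreted trypsin inhibitor, ranked first. It was at 2.76, -4.66, -1.68 and -4.11 at day 30 and at -1.28, -8.06, -7.76 and -8.67 at day 100, where only cow 1 was well above background. Every cow was lower by at least 3.40, the days overlapped, and the difference was -4.52 ± 1.58. MASP1, a protease of the lectin pathway of complement, had the largest mean difference of the 15. Its level was 2.68, 2.39, -0.82 and 2.38 at day 30 and -6.61, 0.34, -6.30 and -0.95 at day 100, where 3 of 4 arrays were well above background, and the days overlapped. The difference of -5.04 ± 1.39 came to -2.19 when epithelial and smooth muscle marker levels entered the fit as covariates, a move of over 1.5 times.

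FRZB, ADAMTS6 and ST6GAL2 did not overlap between days. FRZB, a soluble WNT antagonist, was at -0.13, -1.08, -0.46 and 2.37 at day 30 and at -4.93, -3.15, -3.81 and -2.12 at day 100. No day 100 value reached a day 30 value, and the difference was -3.68 ± 0.80, with -3.13 at its second probe. ADAMTS6, a matrix metalloprotease with thrombospondin repeats, was at -2.74, -2.19, -3.12 and -1.91 at day 30 and at -7.36, -3.68, -7.14 and -7.09 at day 100. Only cow 2 was well above background for ADAMTS6 at day 100, and the measured difference was -3.83 ± 0.94. ST6GAL2, a sialyltransferase that caps glycans, was even at day 30, between -4.07 and -3.45, and no array was well above background at day 100. On the mean over cows it was at least 7.15-fold lower, with measured means of -3.70 and -7.64 and an adjusted p of 0.26. Such bounds are ratios of means over cows and not a minimum for each cow. On each dim array they take the higher of the probe's own signal and the lowest signal counted as well above background.

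ADRB3, the beta-3 adrenergic receptor, was likewise not well above background on any day 100 array. Its day 30 levels were -2.73, -0.38, -4.16 and -4.57. On the mean over cows it was at least 9.05-fold lower at day 100 (measured means -2.96 and -6.65, adjusted p 0.26). Cow 2 gave the largest measured difference, -7.79, and cows 3 and 4 gave -1.49 and -1.5. PRND, the prion-like protein doppel, was lower by 1.54 to 5.86, with 1 of 4 day 100 arrays well above background, and its difference of -3.71 came to -2.34 with the tissue covariates. IGSF1, an immunoglobulin superfamily membrane protein, was at -1.62, -0.79, -0.84 and -1.87 at day 30 and at -6.38, -2.40, -3.65 and -3.54 at day 100. These IGSF1 groups did not overlap, and the difference was -2.71 ± 0.59. CD5L, a secreted protein of macrophages, was lower by a similar amount in every cow, between -2.55 and -1.55, although its groups overlapped.

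TTK, a kinase of the spindle checkpoint, SHCBP1, a protein of dividing cells, and MND1, a cofactor of recombination, were also among the 15. TTK was at -5.16, -3.81, -2.0 and -6.44 at day 30 and was not well above background on any day 100 array. On the mean over cows it was at least 4.64-fold lower, with measured means of -4.35 and -7.40 and an adjusted p of 0.328. The measured TTK differences were -1.66, -4.18, -4.83 and -1.51 in cows 1 to 4. MND1 was at -1.62, -0.38, 0.48 and -1.21 at day 30 and lay between -3.10 and -2.75 at day 100, a difference of -2.21 ± 0.53 with no overlap. SHCBP1 differed by -2.98 ± 0.94, also with no overlap, and 2 of 4 day 100 arrays were well above background. The remaining 3 were the CDC42 effector CDC42EP3 (-2.32), the Ral exchange factor RALGPS2 (-2.25) and the coiled-coil gene CCDC171 (-3.04), all well above background on 8 arrays and all with overlapping days. With the tissue covariates these 3 came to -1.33, -1.37 and -1.85.

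Arrays that the ranking did not use give a second view of these genes. The day 50 and day 10 arrays come from the same cows and slides but are none of the 8 arrays compared. On every slide days 10, 30, 50 and 100 took positions 1, 2, 3 and 4. Both comparisons thus set a later position against an earlier one, and position and day cannot be told apart here either. Of the 15 higher genes, 14 had a higher mean at day 50 than at day 10, with a median difference of 1.62. Of the 15 lower genes, 14 had a lower mean at day 50 than at day 10, with a median of -1.32. Among all 961 genes higher in 4 cows the share above was 74.2%, and among the 947 lower genes the share below was 82.0%. Over all 12923 genes, 47.3% lay above and 52.7% below, with a median of -0.03. The exception among the higher genes was HBG, at a mean of -2.52 at day 10 and -2.72 at day 50, and among the lower genes it was ADAMTS6, at -4.66 and -4.29.

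Several of the most consistent probes carry no gene symbol or only a locus number, and their sequences are shown because no symbol identifies them. The sets shown are those in which several probes share a description: of reticulon 1, an endoplasmic reticulum protein of neuroendocrine cells, and of carboxypeptidase A6-like loci. Probes TC325663, higher by 2.41 ± 0.37 with no overlap, and DQ004740, lower at -3.51 ± 0.55 with 1 of 4 day 100 arrays well above background, ranked among them but have neither description. The first 30 bases of each 60-base probe follow, 5′ to 3′, with nothing capitalised.
Reticulon 1 probe 1: ataaatgctgttgtggcaaagattcaggct
Reticulon 1 probe 2: tgttgtgtgagactgatgggctgatttaca
Reticulon 1 probe 3: agtctgttttacaagctgtgcataaaaccg
LOC540749 probe 1: gatctggattcagaggtatccatcgcgttc
LOC540749 probe 2: tggaccaatgatcgattttggagaaaaaca
LOC516435 probe: agagacactcatcaaacccacctgtacaga

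The reticulon 1 probes lie on the minus strand of chromosome 10 of HGSC Btau_3.1, the second at chr10:73927576-73927635. They were higher at day 100 by 4.36 ± 0.90, 4.31 ± 0.93 and 3.75 ± 0.88. For probe 1 the levels were -3.93, -7.39, -4.34 and -9.16 at day 30, where 2 of 4 arrays were well above background, and -0.11, -4.00, -2.0 and -1.27 at day 100. All 3 probes were higher in 4 of 4 cows, most in cow 4, and the days overlapped for each. The carboxypeptidase A6-like loci lie on chromosome 14, LOC540749 at chr14:31690103-31690162 for its first probe and LOC516435 at chr14:31828550-31828609, both on the minus strand. LOC540749 was at -1.46, 1.17, -3.13 and -2.16 at day 30 and at -5.40, -2.56, -6.82 and -5.39 at day 100, so that each cow was lower by between 3.23 and 3.93 whatever its starting level. For this probe 3 of 4 day 100 arrays were well above background, and the days overlapped. The differences were -3.64 ± 1.07 and -3.64 ± 1.07 for its 2 probes and -3.58 ± 1.26 for LOC516435, with adjusted p of 0.273, 0.274 and 0.314. The loci carry similar descriptions, and cross-binding between their transcripts was not tested.

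Genes were then grouped into 18 pathway lists and 13 lists of cell type markers. For each list, the count of members on 1 side in 4 of 4 cows was set beside the share over all genes. The shares were 7.44% higher and 7.33% lower, and they apply to every list below, also where not repeated. The median difference was set beside the 0.00 of all genes. At an unadjusted p under 0.05, 6.63% of all genes were higher and 6.0% lower. No list was tested, no member of any list passed the adjusted threshold, and the lists share members.

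**Figure D3:**
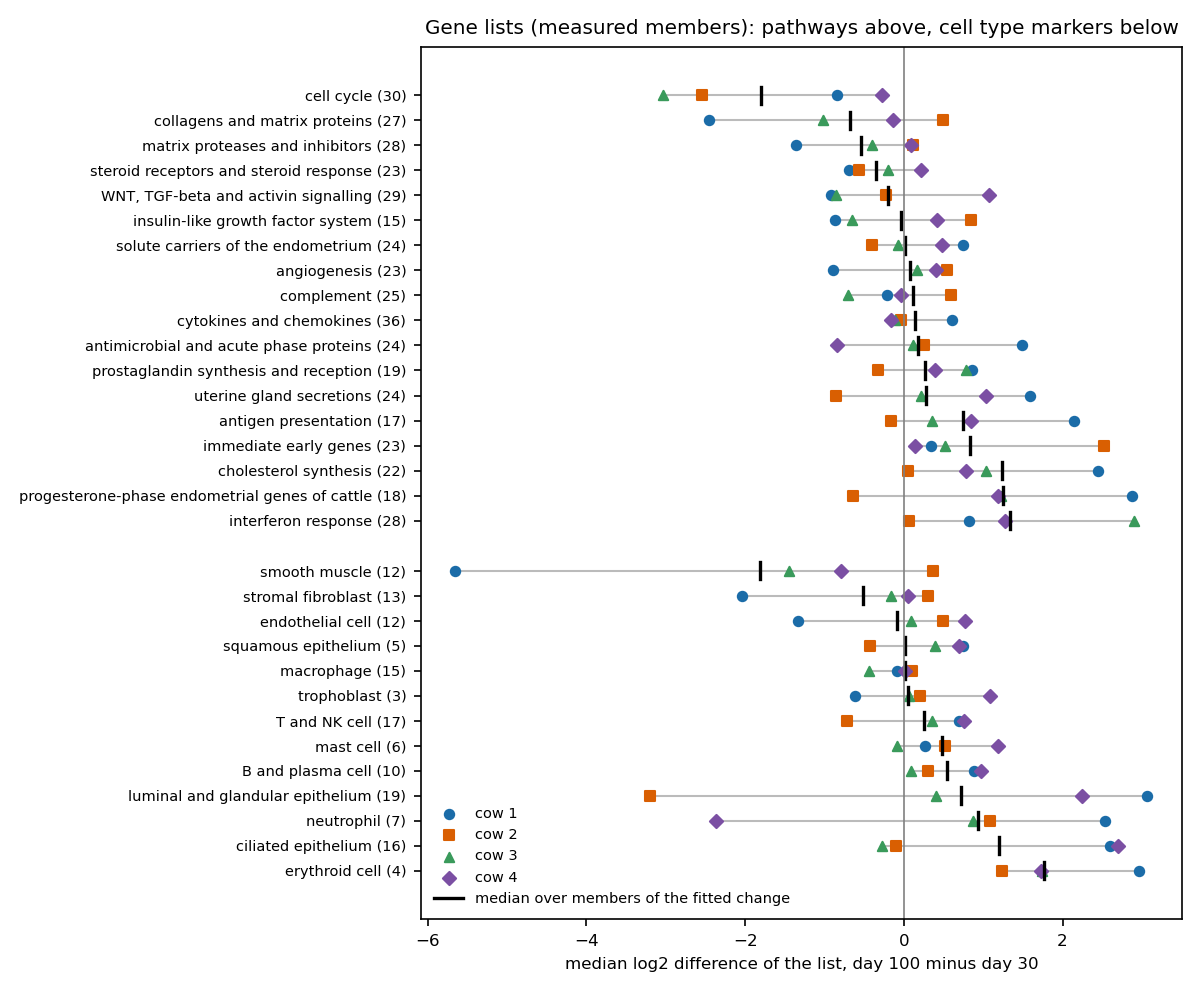
Median within-cow log2 difference, day 100 minus day 30, of each gene list (points, 1 per cow) and the median over members of the fitted difference (black tick); the number of measured members is in brackets. The cell cycle list lies below 0 in every cow and the interferon, cholesterol and immediate early lists above 0, while the epithelial list runs from -3.2 in cow 2 to 3.07 in cow 1.

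Cell cycle genes were lower at day 100. Of 30 measured members, 12 were lower in 4 of 4 cows and 0 higher, 16 had an unadjusted p under 0.05 in the lower direction, and the median difference was -1.80. The median by cow was -0.84, -2.54, -3.04 and -0.28. CCNA2, the cyclin of S and G2 phase, was at -3.18, -2.73, -1.32 and -4.30 at day 30 and at -4.99, -5.04, -3.53 and -5.00 at day 100, a difference of -1.75 ± 0.69. MCM6, a subunit of the replicative helicase, was at 0.07, 0.67, 0.89 and 0.81 against -1.05, 0.00, 0.17 and -0.59. Its cows were lower by 0.67 to 1.4, and the difference was -0.98 ± 0.26. CENPE, a kinesin of the kinetochore, differed by -1.88 ± 0.83, with -2.91 and -3.46 in cows 2 and 3 and -0.62 and -0.51 in cows 1 and 4.

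The level of the list was lower at day 100 by a wide margin in cows 1 to 3 and hardly in cow 4. Relative to the mean of 16 arrays it was 0.29, 0.97, 2.20 and -0.71 at day 30 and -0.59, -1.4, -0.60 and -0.80 at day 100. Cow 4 was already low at day 30 and reached 1.66 at day 50. Leaving out cow 4, 22 of 30 members were lower in the other 3 cows, against 14.0% of all genes, and leaving out cow 2 the count was 12, against 15.9%, and the median -1.39. MKI67 and TOP2A, common proliferation markers, were not among the measured members.

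Interferon-stimulated genes were higher at day 100, most in cow 3. Of 28 measured members, 14 were higher in 4 of 4 cows and 0 lower, 20 were higher at an unadjusted p under 0.05, and the median difference was 1.34. By cow the median was 0.82, 0.06, 2.90 and 1.27, so that cow 2 showed nearly none of it. IFI35, an interferon-induced protein, was at 1.03, 1.08, 1.54 and 0.98 at day 30 and at 2.19, 1.83, 3.19 and 1.92 at day 100. Those levels did not overlap, and the difference was 1.13 ± 0.43, adjusted p 0.33. IRF1, a transcription factor of the interferon response, was higher by 0.66 to 1.64, and IFIT2, an inhibitor of viral translation, by 0.65 to 3.29. For IFIT2, 3 of 4 day 30 arrays were well above background. Without cow 2, 24 of 28 members were higher in the other 3 cows, against 16.7% of all genes, and without cow 3 the count was 14, against 12.6%, with a median of 0.72.

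The antigen presentation list, which holds class I and class II molecules and their processing machinery, lay higher as well. Of 17 measured members 6 were higher in 4 of 4 cows and 0 lower, with a median of 0.75, but cow 1 gave 2.15 and cow 2 gave -0.16. Only 1 member was higher at an unadjusted p under 0.05, against 6.63% of all genes. Without cow 1 the median was 0.34, and 6 members were higher in 3 cows, against 11.4% of all genes. BOLA, a bovine class I heavy chain, was at 5.74, 5.73, 5.79 and 6.43 at day 30 and at 6.85, 5.85, 6.38 and 6.75 at day 100, a difference of 0.54 ± 0.26. Its 6 probes ran from 0.45 to 0.94, and class I genes are near-identical copies that such probes may not tell apart.

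Genes of the cholesterol synthesis list were higher at day 100, most in cow 1. Of 22 measured members 7 were higher in 4 of 4 cows and 0 lower, 12 were higher at an unadjusted p under 0.05, and the median was 1.24. The cow medians were 2.45, 0.05, 1.04 and 0.79. HMGCS1, which makes the precursor of mevalonate, was higher by 2.97, 0.30, 2.06 and 0.56, and DHCR7, the last enzyme of the pathway, by 2.50, 0.47, 1.19 and 0.77. Their differences were 1.47 ± 0.44 and 1.23 ± 0.46, and DHCR7 was at 0.74 without the day 100 array of cow 1. Without cow 2, 16 of 22 members were higher in 3 cows, against 16.7% of all genes, and without cow 1 the count was 7, against 11.4%, with a median of 0.68.

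Epithelial markers moved with these higher lists in part. The cow medians of the epithelial list were 3.07, -3.2, 0.40 and 2.24, and cow 2, the lowest there, was also lowest for the interferon, antigen presentation and cholesterol lists. Of 19 epithelial markers 0 were on 1 side in 4 of 4 cows, and the median was 0.72. With the epithelial and smooth muscle levels in the fit as covariates, HMGCS1 differed by 0.78, DHCR7 by 0.72, IFI35 by 0.69, IRF1 by 0.38, IFIT2 by 1.43 in place of 1.84, and BOLA by 0.28. The part of tissue make-up in these differences beyond those fits was not tested.

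Immediate early genes, which answer to growth factors and to handling of tissue within minutes, were higher in cow 2 above all. The list had 8 of 23 members higher in 4 of 4 cows and 1 lower, and its median was 0.83, with 0.34, 2.52, 0.52 and 0.14 by cow. NR4A1, an orphan nuclear receptor, was at -0.96, -1.26, -1.4 and -0.58 at day 30 and at 2.90, 3.03, 0.13 and 0.53 at day 100. The groups did not overlap, and the difference was 2.70 ± 0.72. NR4A2, its relative, was at -2.12, -1.86, -0.40 and -0.93 against 0.34, 0.24, 0.48 and 0.06, and KLF4, a zinc finger factor of epithelium, at 0.29, 0.12, 0.76 and 0.28 against 1.14, 2.57, 2.10 and 1.37. Both were without overlap, at 1.61 ± 0.60 and 1.43 ± 0.41, and NR4A2 came to 0.98 with the tissue covariates. MYC, the growth regulator, was the member lower in 4 of 4 cows, by 0.12 to 2.48. Leaving out cow 2, 8 members were higher in the other 3 cows, against 16.7% of all genes, and the median was 0.17. Leaving out cow 4 gave 13, against 14.9%. The sources used here do not give the time between biopsy and preservation.

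**Figure D4:**
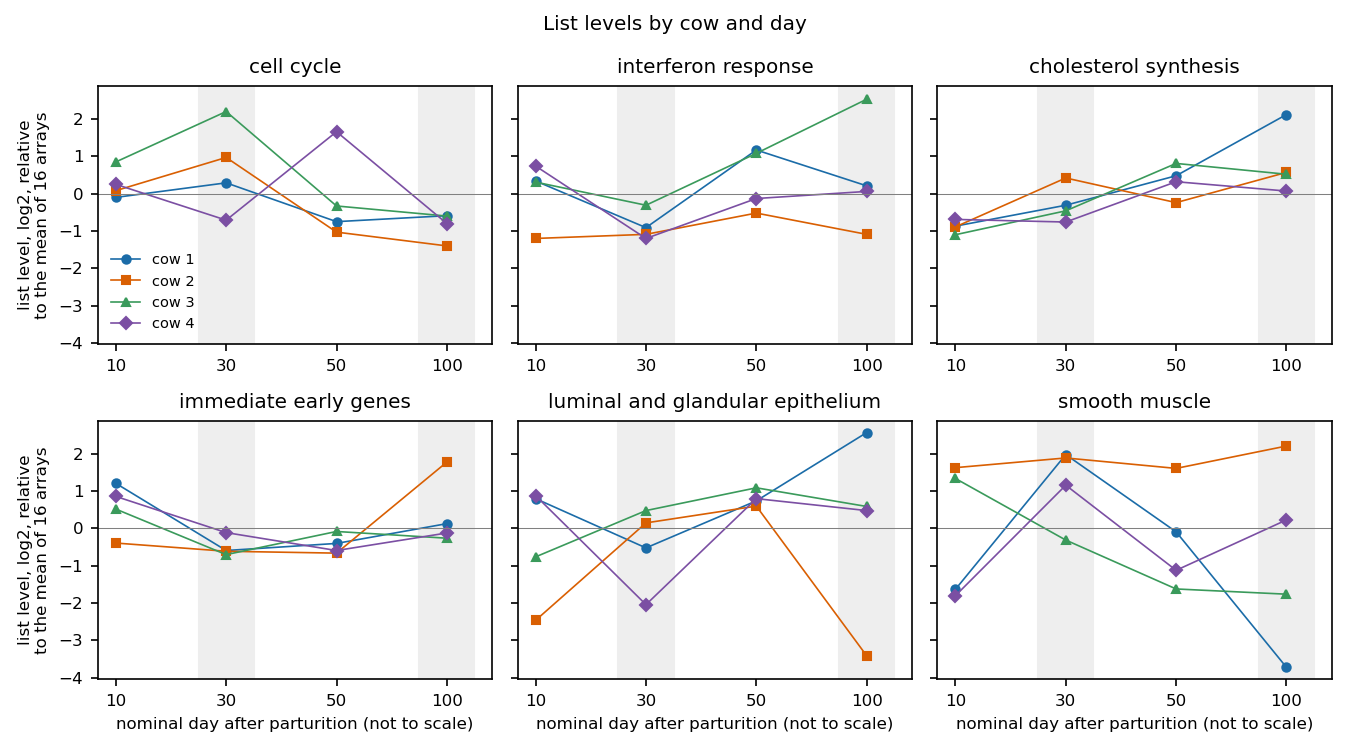
Mean level of 6 gene lists, relative to the mean of 16 arrays, by cow and nominal day, with days 30 and 100 shaded. At day 100 cow 3 is highest in the interferon list (2.53), cow 2 in the immediate early list (1.78) and cow 1 in the cholesterol and epithelial lists (2.12 and 2.57).

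PGR and OXTR were lower at day 100 in 4 of 4 cows and ESR1 in 3 of 4. PGR, the progesterone receptor, was at -0.90, 0.56, -0.27 and -0.12 at day 30 and at -1.66, -1.0, -1.16 and -1.58 at day 100. No value overlapped, every cow was lower by 0.76 to 1.56, and the difference was -1.17 ± 0.32, adjusted p 0.267. ESR1, the oestrogen receptor alpha, was lower in 3 of 4 cows, at -5.13, -3.60, -4.29 and -4.80 against -4.53, -5.24, -6.54 and -6.04. For ESR1, 3 of 4 day 100 arrays were well above background. OXTR, the oxytocin receptor, was at 2.12, 1.59, 1.37 and 1.27 at day 30 and at 1.12, 1.03, -2.59 and -2.08 at day 100. OXTR did not overlap between days, yet at day 100 cows 1 and 2 lay far above cows 3 and 4, and the difference of -2.22 ± 1.05 had an unadjusted p of 0.0567. HAND2, a stromal transcription factor under progesterone control, differed by -1.78 ± 0.43 with no overlap, although 1 day 100 array was not well above background. Of the 23 measured members of the steroid list, 5 were lower in 4 of 4 cows and 0 higher, with a median of -0.35. By mean difference the list was nearly even, with 11 members above 0 and 12 below, and its cow medians were -0.69, -0.56, -0.20 and 0.22.

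Genes known from the progesterone phase of the bovine cycle were on the whole higher, with a median of 1.25 over 18 members, but 3 were higher in 4 of 4 cows. Cow 2 again stood apart, with cow medians of 2.88, -0.64, 1.23 and 1.19. IGFBP1, a binding protein of insulin-like growth factors secreted by the epithelium, was at -4.11, -4.84, -4.59 and 0.79 at day 30 and at 4.32, -1.03, 3.25 and 1.93 at day 100. Its difference was 5.31 ± 1.77, adjusted p 0.305, and cow 4, already high at day 30, gave 1.14. DKK1, a secreted WNT inhibitor, was at -0.46, -5.09, -2.42 and -2.07 at day 30 and at -0.39, 3.32, 2.32 and 1.79 at day 100. The levels did not overlap, although cow 1 differed by 0.07 and cow 2 by 8.41, and the mean was 4.27 ± 1.1.

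Gland products were mixed, with a median of 0.28. Of 24 members, 3 were higher in 4 of 4 cows and 1 lower, against 7.44% and 7.33% of all genes. SPP1, osteopontin, was that lower gene, at -2.33, -1.88, 1.18 and -1.05 against -4.23, -2.74, -2.93 and -3.42, a difference of -2.31 ± 0.80 with no overlap. STC1, stanniocalcin, was higher by 0.85 to 1.88, on average 1.35, or 0.87 with the tissue covariates. SERPINA14, the uterine milk protein, was higher in 3 of 4 cows and lower by 2.97 in cow 2, for a mean of 2.83 ± 1.52 (1.77 without the day 100 array of cow 1), and 2 of 4 day 30 arrays were well above background.

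Prostaglandin genes were mixed. Of 19 measured members 4 were higher in 4 of 4 cows and 3 lower, against 7.44% and 7.33% of all genes. The median was 0.27. HPGD, which breaks prostaglandins down, and AKR1C4, an aldo-keto reductase, were higher, the latter by 0.89, 1.71, 3.90 and 1.29. HPGDS, the haematopoietic prostaglandin D synthase, was higher by 0.39 to 4.66, but only 2 of 4 day 30 arrays were well above background, and its mean of 1.87 came to 0.88 with the tissue covariates. PTGFR, the receptor for prostaglandin F2 alpha, was lower in 4 of 4 cows, at -1.84, -0.06, -4.10 and -0.81 at day 30 and at -8.55, -1.28, -8.25 and -8.18 at day 100. Only cow 2 remained well above background for PTGFR at day 100. The measured difference was -4.86 ± 1.19, adjusted p 0.26, and the 3 tested probes of the gene ran from -4.86 to -1.82. Cow 2 also had the highest smooth muscle level at day 100, and with the tissue covariates the difference was -3.33.

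**Figure D5:**
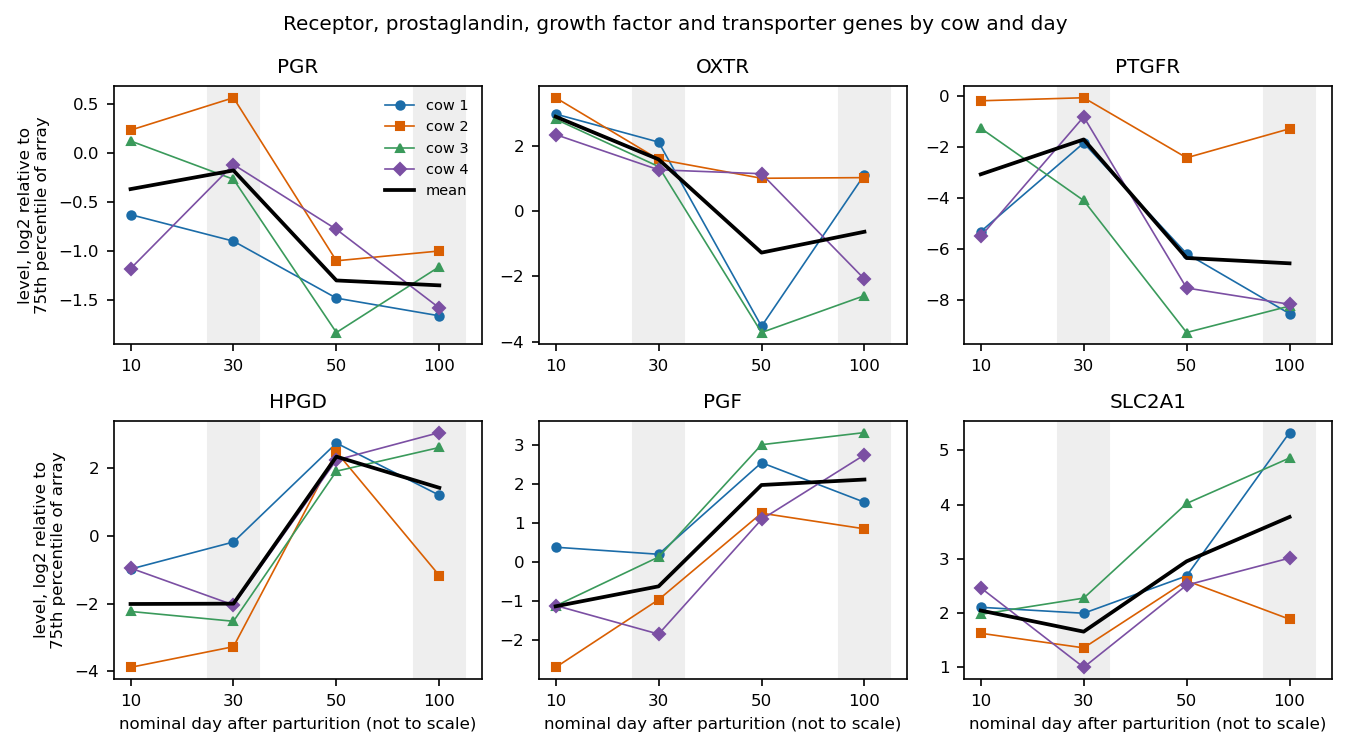
Levels (log2 relative to the 75th percentile of the array) of 6 genes by cow and nominal day, with the mean of 4 cows in black and days 30 and 100 shaded; vertical scales differ. PGR, OXTR and PTGFR are lower and HPGD, PGF and SLC2A1 higher at day 100 than at day 30 in 4 of 4 cows.

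Growth factor and vascular genes showed a few consistent members within lists near 0. The angiogenesis list had a median of 0.08, with 3 of 23 members higher in 4 of 4 cows and 1 lower. The shares over all genes were 7.44% and 7.33%. Beside PGF, the higher members were DLL4, a Notch ligand of endothelial tip cells (1.29 ± 0.39), and KDR, the main VEGF receptor (0.91 ± 0.33). ANGPTL4, an inhibitor of lipoprotein lipase, was lower by 1.0 to 1.87, on average by 1.44, with a difference of -0.92 without the day 100 array of cow 1. With the tissue covariates DLL4 came to 0.85 and KDR to 0.55. In the insulin-like growth factor list, with a median of -0.04 over 15 members, IGFBP2 was at -4.47, -6.52, -3.47 and -5.05 against -3.24, -3.41, -1.27 and -1.69. Every IGFBP2 value at day 100 exceeded every value at day 30, and the difference was 2.47 ± 1.1. Of the day 30 arrays, 3 of 4 were well above background for IGFBP2.

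In the list of WNT, TGF-beta and activin signalling, 2 of 29 members were higher in 4 of 4 cows and 4 lower. Over all genes 7.44% were higher and 7.33% lower. TGFB2, a ligand of the TGF-beta family, was at -1.99, -2.08, -1.42 and -1.22 at day 30 and at -4.29, -2.30, -3.69 and -3.15 at day 100. Its groups did not overlap, but cow 2 was lower by only 0.21. Over all 8 arrays the difference was -1.68 ± 0.36 (adjusted p 0.26), and without the day 100 array of cow 2 it was -2.11 with an adjusted p of 0.0280. Without that of cow 1 it was -1.37 with an adjusted p of 0.336. SFRP2, another soluble WNT antagonist, was lower by 2.98, 0.97, 2.80 and 2.87, and its mean of -2.40 came to -1.49 with the tissue covariates. FST, follistatin, which binds activin, was higher by 3.61 and 3.58 in cows 3 and 4 and by 0.06 in cow 2, for a mean of 2.12 ± 0.62.

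Solute carriers had a median of 0.02 as a list. Of 24 members, 6 were higher in 4 of 4 cows and 1 lower, against 7.44% and 7.33% of all genes. SLC1A4, a neutral amino acid transporter, differed by nearly the same amount in each cow, 0.85, 0.93, 0.91 and 0.74. Its levels of 0.60, 0.29, 0.92 and 1.07 at day 30 and 1.45, 1.23, 1.84 and 1.81 at day 100 did not overlap, and the difference was 0.86 ± 0.27. SLC2A1, the main glucose transporter, was at 1.99, 1.35, 2.27 and 0.99 against 5.33, 1.88, 4.86 and 3.01. Its difference was 2.12 ± 0.51, adjusted p 0.26. Without the day 100 array of cow 2, which differed least (0.53), it was 2.63 with an adjusted p of 0.0486. Without that of cow 1 it was 1.61 with an adjusted p of 0.357.

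Matrix genes lay lower, most in cow 1. Of 27 collagens and other matrix proteins 6 were lower in 4 of 4 cows and 0 higher, with a median of -0.68 and cow medians of -2.46, 0.49, -1.02 and -0.14. The smooth muscle markers gave -5.65, 0.37, -1.45 and -0.79 and the stromal fibroblast markers -2.04, 0.30, -0.16 and 0.05, so cow 1 was lowest and cow 2 highest in all 3 lists. COL15A1, a basement membrane collagen, was at -0.11, 0.44, -0.07 and -0.07 at day 30 and at -3.42, 0.26, -1.58 and -0.70 at day 100, a difference of -1.4 ± 0.56. LOXL1, an enzyme that crosslinks elastin, differed by -1.57 ± 0.65, with -0.18 in cow 2. With the tissue covariates COL15A1 came to -1.04, LOXL1 to -1.31 and LOXL2, a related enzyme, from -1.14 to -1.29. Without the day 100 array of cow 1 COL15A1 was at -0.72 and LOXL2 at -0.48. Without cow 1 the count was 6 of 27, against 11.9% of all genes, and the median -0.08; without cow 2 it was 14, against 15.9%, and without cow 3 it was 6, against 12.4%.

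Among matrix proteases 1 of 28 members was higher in 4 of 4 cows and 4 were lower, with a median of -0.54. PAMR1, a secreted protein with a protease-like domain, was at 1.93, 0.58, 1.72 and 3.77 at day 30 and at -2.31, 0.24, -1.53 and -0.31 at day 100. The PAMR1 levels did not overlap, and the difference was -2.98 ± 0.60, adjusted p 0.26. Without the day 100 array of cow 2, which was lower by only 0.34, it was -3.48 with an adjusted p of 0.0476. Without that of cow 1 it was -2.55 with an adjusted p of 0.333. ADAMTS5, an aggrecan-cleaving protease, was lower by 0.96 to 2.33 with no overlap, a difference of -1.48 ± 0.39. PLAT, the tissue plasminogen activator, was the higher member, by 0.46 to 1.77.

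Contractile genes themselves were lower in most cows. Of 12 smooth muscle markers 12 had a mean difference below 0 and 2 were lower in 4 of 4 cows. ACTG2, the gamma actin of visceral muscle, was at 4.83, 4.62, 3.63 and 4.16 at day 30 and at -2.24, 4.59, -0.39 and 3.26 at day 100. PLN, a regulator of the calcium pump, differed by -5.66 in cow 1 and by -1.14, -0.48 and -0.48 in cows 2 to 4. With the tissue covariates the difference came to 0.04 for PLN, -0.40 for ACTG2 and 0.39 for MYH11. These genes belong to the list from which the smooth muscle covariate was built. That fit thus adjusts them partly for themselves, and a move towards 0 was built into it. Without the day 100 array of cow 1 the differences came to -0.91, -1.90 and -0.79.

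The lists of immune cell markers had medians above 0, but all except the B and plasma cell list changed sign between cows. Medians were 0.26 over 17 T and NK cell genes, 0.54 over 10 B and plasma cell genes, 0.02 over 15 macrophage genes and 0.48 over 6 mast cell genes, and the 7 neutrophil markers had a median of 0.94 that ran from -2.37 in cow 4 to 2.54 in cow 1. The 4 cow medians of the B and plasma cell list were 0.89, 0.31, 0.09 and 0.97, all above 0. Of the T and NK cell list 2 of 17 members were higher in 4 of 4 cows, and of the mast cell list 1 of 6. Over all genes the share was 7.44%. By mean difference 4 of the 17 and 2 of the 6 lay below 0, and the T and NK cell median was -0.71 in cow 2. Single members that kept 1 direction follow. GZMB, a protease of cytotoxic granules, was higher by 1.58, 1.74, 1.74 and 1.05, a difference of 1.53 ± 0.56. CD3D, a chain of the T cell receptor complex, was higher by 0.02 to 0.75 at its brightest probe, but its 3 probes ran from -0.35 to 0.39. Of the B and plasma cell list 4 of 10 members were higher in 4 of 4 cows, among them MS4A1, the B cell antigen CD20 (1.87 ± 0.53), BLK, a B cell kinase (1.74 ± 0.61), and MZB1, a chaperone of antibody-secreting cells (0.63 ± 0.42). For MS4A1, 3 of 4 day 30 arrays were well above background. CPA3, a protease of mast cell granules, was higher by 0.73 to 2.94, with 2 of 4 day 30 arrays well above background. With the tissue covariates GZMB came to 0.66, MS4A1 to 0.83, MZB1 to 0.33 and CPA3 from 2.23 to 1.1, and MZB1 was also at 0.33 without the day 100 array of cow 2.

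Cilia genes, which mark the ciliated cells of the surface and gland mouths, had a median of 1.20 over 16 members, of which 2 were higher in 4 of 4 cows. TTLL9, a tubulin-modifying enzyme, was at -3.51, -5.67, -1.61 and -6.01 at day 30 and at -1.43, -2.46, -1.42 and -1.83 at day 100. The spread between cows was an SD of 2.05 at day 30 and of 0.49 at day 100, and the difference was 2.41 ± 0.69. CCDC39, a ruler protein of the ciliary axoneme, was higher by 0.86 to 2.12, with 3 of 4 day 30 arrays well above background. The cow medians of the list, 2.60, -0.10, -0.27 and 2.70, were highest in cows 1 and 4, as for the epithelial list.

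Lists of innate defence had medians near 0. Cytokines and chemokines had a median of 0.14 over 36 members with 3 higher and 1 lower in 4 of 4 cows, antimicrobial and acute phase proteins 0.18 over 24 members with 2 higher and 0 lower, and complement 0.12 over 25 members with 1 higher and 1 lower. These counts lie near the shares over all genes. The 13 stromal, 12 endothelial, 5 squamous and 3 trophoblast markers gave medians of -0.52, -0.09, 0.02 and 0.05.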

How the data were processed

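Total RNA from 16 biopsies of 4 cows was hybridised to 1-colour arrays. The deposited scanner files hold intensity values. Per the file headers they came from Agilent Feature Extraction 11.5.1.1, while the submitters' processing notes name 10.5.1.1. The processed intensity is background-subtracted and detrended per the file headers, with surrogate values for weak spots, and is not scaled between arrays. The authors' deposited value table was found by comparison to hold log2 values on the same 75th percentile scale, with the median of every probe subtracted, and served as an alternative.

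Log2 processed signals of probes that are no controls were scaled to the 75th percentile of each array. A probe was tested where 4 or more of 16 arrays were marked well above background by the scanner software. The model in limma 3.58.1 (R 4.3.3) held day and cow and used all 16 arrays (9 residual degrees of freedom) with Benjamini-Hochberg adjustment at 0.05. The labels state that the same number marks the same animal. Deviations from the day means correlated with a median r of 0.13 within cows and -0.04 between cows over all days, and for days 30 and 100 alone with 0.11 within and 0.11 between cows. P-values and standard errors rest on the spread left after the day and cow terms, pooled over all 16 arrays and moderated across probes. They do not measure the spread of the 4 within-cow differences alone. An exact permutation test over 4 pairs, two-sided, cannot go below 0.125.

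Named were the 15 most consistent genes in each direction among those well above background on all 4 arrays of either day, any called gene, up to 3 members of each list in each direction, and ESR1, PGR, OXTR, SERPINA14, MKI67, EPCAM and MYH11. MKI67 was not tested, and 2 genes of the first 15 higher ones are not reported here. AHSP, SLC4A1 and the unnamed probes fall outside this rule and were chosen after their values were seen. The members and lists were chosen with earlier results of these data known. Of 43653 probes, 32794 carry a symbol from the files, updated where possible through RefSeq gene tables (assembly ARS-UCD2.0), from which no coordinates were taken. On simulated data for this comparison, with 32891 probes, the fit called 6, 30, 44 and 50 of 50 probes changed by 1, 2, 4 and 8 on the log2 scale. The simulated noise was independent between probes, with 1 spread per probe at all days. In the real arrays the median SD over cows was 0.336 at day 50 and 0.685 at day 100. The simulated counts therefore do not give the share of real changes that would be called. Alternatives covered background correction, scaling, the filter on dim probes, the value table, the cow term, array weights, tissue marker covariates and leaving out cows or single arrays.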

Additional observations from a re-analysis of the deposited data

Results flagged for a closer look

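In 224 groups of 4 values, the named genes and list levels at each of the 2 days, 19 had 1 cow far from the other 3 by Dixon's criterion. Chance alone marks about 1 group in 20. None of the distances was tested further.

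At day 100, cow 1 stood highest for HBG (2.32) and SPINK1 (-1.28) and for the level of the antimicrobial list (1.16). Cow 2 at day 100 stood highest for ADAMTS6 (-3.68) and for PTGFR (-1.28) and lowest for EPCAM (-3.20), for the steroid list (-0.64) and for the T and NK cell list (-1.25). Cow 3 at day 100 stood highest for CCNA2 (-3.53).

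At day 30, cow 4 stood highest for IGFBP1 (0.79) and BOLA (6.43) and lowest for the steroid list (-0.79). Cow 3 stood highest for KDR (1.65) and for the antigen presentation list (0.0), and lowest for MASP1 (-0.82) and MYH11 (4.55). Cow 2 stood highest for COL15A1 (0.44) and MZB1 (-3.90) and lowest for the insulin-like growth factor list (-0.50).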

How the results depend on the processing

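The count of called probes was 0 under each alternative of background correction, scaling, filter, value table, array weights and tissue covariates. It was also 0 with no replicate block, that is without the cow term, and with the 8 arrays alone. Leaving out a cow or a single array gave between 0 and 112 called probes, with 112 without the day 100 array of cow 2 and 1 without that of cow 1. PAMR1, SLC2A1 and TGFB2 passed the threshold only without the day 100 array of cow 2, the cow in which each of them differed least.

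Of 1802 alternative values for 81 genes and 5 list counts, 1783 kept their direction and side of the threshold and 11 reversed. EPCAM, at 0.30, came to -0.17 with array weights, to -0.53, 2.83, -0.09 and -1.01 without cows 1 to 4, to -0.14 and -0.68 without the day 30 arrays of cows 1 and 4, and to -0.36, -0.35 and -0.47 without the day 100 arrays of cows 1, 3 and 4. With tissue covariates MYH11 came to 0.39 and PLN to 0.04. The cause was not tested, except that the covariates were built from such markers. Over all tested probes the median difference lay between -0.079 and -0.002 in every setting. Counts over 3 cows were chosen after seeing the data. The limits are 4 cows, 1 array per cow and day, unequal levels of tissue markers, and slide position tied to day. Probes near background have only a bound.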
